A study of Sus scrofa with 6 samples.

Results

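Intramuscular fat is laid down between the fibres of a muscle, and its cells both make and store lipid. The genes described here were 10 named genes of that system, of which 9 had a row among the 17627 genes of the table when Ensembl identifiers were matched to symbols. ELOVL6, which lengthens palmitate, had no row and was not analysed here. All 9 passed the filter of at least 1 FPKM in 3 or more libraries, with 11791 genes tested in all. FPKM scales fragments by transcript length and by the library's mapped fragments, so levels of different genes can be set side by side.

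The RNA came from longissimus dorsi, a muscle that runs along the back. There were 3 libraries of the Wannanhua breed, native to China, and 3 of the Yorkshire breed, kept worldwide for lean meat. All 6 are labelled as 5 months of age, whereas the series' design text speaks of piglets. The labels name no treatment and do not state that the libraries came from separate animals, so any p-value rests on spread among libraries that may be technical. The tissue is whole muscle, in which fewer fat cells and less RNA per fat cell cannot be told apart.

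Fatty acids are built in the cytosol from citrate. ACLY splits citrate into acetyl-CoA, ACACA carboxylates it to malonyl-CoA, FASN joins these units into palmitate, and SCD puts a double bond into the product. ME1, the cytosolic malic enzyme, yields NADPH for that synthesis and is also used by cells that are not fat cells. PPARG and CEBPA are the transcription factors that drive and maintain fat cells. PLIN1 coats the lipid droplet of fat cells and controls its breakdown, and CIDEC, a protein of droplet contact sites, fuses droplets into larger ones.

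The totals of the deposited scaled counts lay between 16373268 and 19251335 per library, and between 10726 and 11979 genes reached 1 FPKM. Yorkshire 1 stood apart: it had the fewest such genes and the lowest median FPKM over tested genes, 5.32 against 6.27 to 7.29 in the other libraries. It was the lowest of the 6 libraries in 36.3% of tested genes. Results are therefore given with and without it. The median log2 fold change of all tested genes, Wannanhua relative to Yorkshire in units of log2(FPKM + 1), was 0.12, and 0.00 after quantile normalization. Fold changes in these units understate the change of low genes.

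None of the 9 genes passed the threshold between the breeds in limma (adjusted p under 0.05), where 3.05% of all tested genes did. ACLY alone, 1 of the 9, had an unadjusted p under 0.05, against 22.1% of tested genes. Wannanhua minus Yorkshire log2 fold changes were positive for 8 of the 9 (62.6% of tested genes), with a median of 0.31. Without Yorkshire 1, 5 were positive, 0 passed after adjustment and 2, ACLY and FASN, had an unadjusted p under 0.05. In that fit 190 of the 11791 tested genes passed after adjustment. Its shares of positive fold changes and of unadjusted p under 0.05 over all genes were not computed, so the 5 and the 2 have no background beside them. The median of the members was then 0.15, beside 0.06 over all tested genes.

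**Figure D1:**
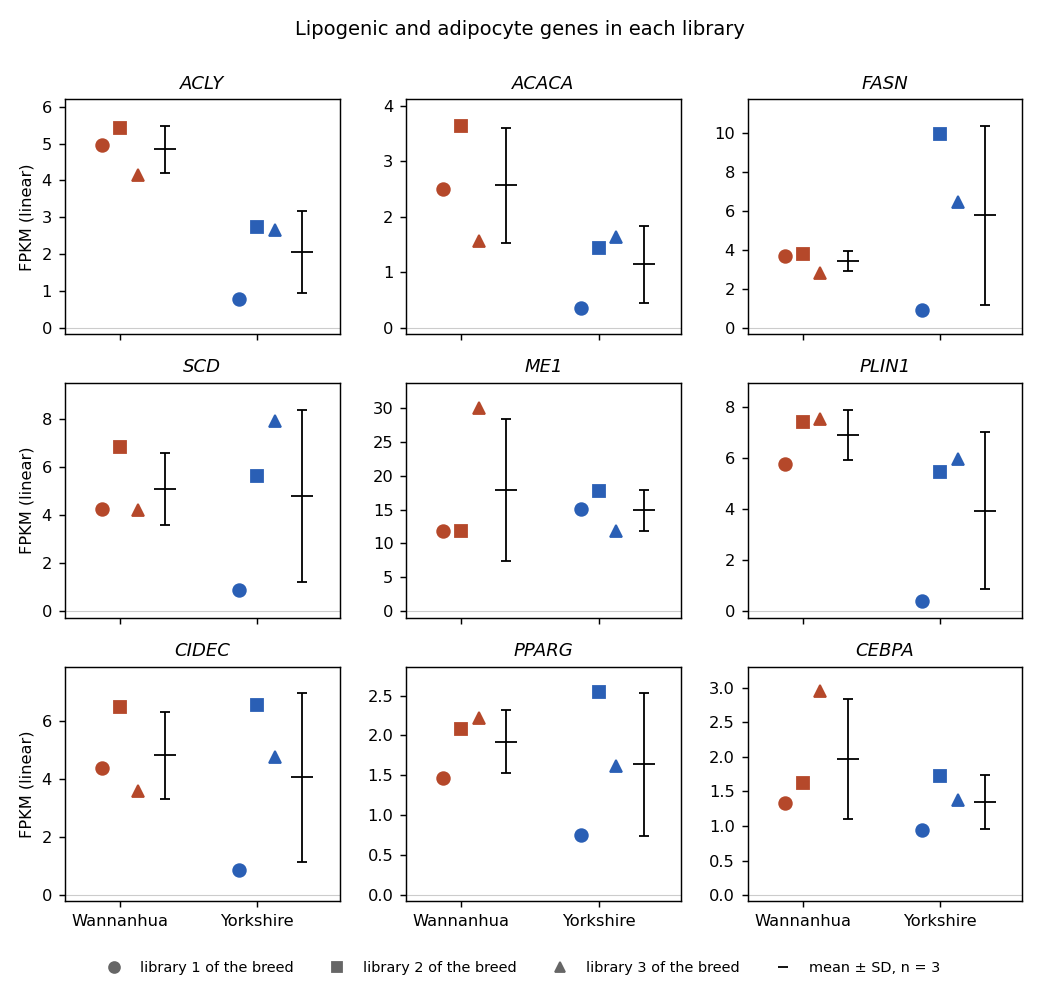
FPKM (linear axes) of the 9 genes in each library, Wannanhua left and Yorkshire right; points are libraries and the black marks the mean ± SD (n = 3). Yorkshire 1, the blue circle, was the lowest library for every gene but ME1, and ACLY is the gene whose breeds did not overlap.

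ACLY (ENSSSCG00000017421) stood at 4.97, 5.42 and 4.16 FPKM in Wannanhua 1, 2 and 3, and at 0.772, 2.74 and 2.66 FPKM in Yorkshire 1, 2 and 3. Every Wannanhua library was above every Yorkshire library, the only such case among the 9; the breeds did not overlap in 29.9% of tested genes, with Wannanhua higher in 20.3% and lower in 9.63%. The means were 4.85 ± 0.637 FPKM in Wannanhua and 2.06 ± 1.12 FPKM in Yorkshire (SD, n = 3 each). On the log2 scale the difference was 1.01 ± 0.31 SE, with a 95% interval of 0.29 to 1.73 and an adjusted p of 0.120 in limma. Without Yorkshire 1 it was 0.65, with an interval of 0.24 to 1.07 (limma adjusted p = 0.101).

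ACACA (ENSSSCG00000017694) stood at 2.50, 3.63 and 1.57 FPKM in Wannanhua, and at 0.355, 1.44 and 1.64 FPKM in Yorkshire. The breeds overlapped narrowly, since Yorkshire 3 was just above Wannanhua 3. The log2 difference was 0.75 ± 0.32 SE over all 6 libraries (adjusted p = 0.228 in limma) and 0.45 without Yorkshire 1 (adjusted p = 0.370).

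FASN (ENSSSCG00000029944), the enzyme next in line, was placed otherwise. It stood at 3.66, 3.77 and 2.81 FPKM in Wannanhua, and at 0.895, 9.95 and 6.43 FPKM in Yorkshire. The Wannanhua libraries lay close together, between 1 Yorkshire library below them all and 2 above them all. The log2 fold change of -0.29 had a 95% interval of -1.66 to 1.08 (limma adjusted p = 0.807). Without Yorkshire 1 it was -1.04, with an interval of -1.58 to -0.50, and it did not pass after adjustment (limma unadjusted p = 0.00302, adjusted p = 0.0734).

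SCD (ENSSSCG00000010554) stood at 4.26, 6.82 and 4.21 FPKM in Wannanhua, and at 0.900, 5.63 and 7.88 FPKM in Yorkshire. Yorkshire held both its lowest and its highest library. The log2 difference was 0.31 ± 0.54 SE (adjusted p = 0.773 in limma), and -0.36 without Yorkshire 1 (adjusted p = 0.444).

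ME1 (ENSSSCG00000004454) was the most abundant of the 9. It stood at 11.8, 11.8 and 29.9 FPKM in Wannanhua, and at 15.1, 17.7 and 11.8 FPKM in Yorkshire. Wannanhua 3 was alone in being high, and the other 5 libraries lay between 11.8 and 17.7 FPKM. Its log2 fold change was 0.13 (95% interval -0.71 to 0.98; limma adjusted p = 0.860), and -0.29 without Wannanhua 3.

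PLIN1 (ENSSSCG00000001844), the droplet coat protein, stood at 5.77, 7.40 and 7.52 FPKM in Wannanhua, and at 0.423, 5.44 and 5.98 FPKM in Yorkshire. Yorkshire 1 was far below the other 5 libraries, which lay within a narrow range. Its scaled count there was 9.83, the lowest of any of the 9 genes in any library, against 125 and 142 in Yorkshire 2 and 3. The log2 difference was 0.97 ± 0.57 SE (adjusted p = 0.361 in limma), and 0.23 without Yorkshire 1, with a 95% interval of -0.20 to 0.65.

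CIDEC (ENSSSCG00000011557) stood at 4.38, 6.48 and 3.59 FPKM in Wannanhua, and at 0.866, 6.54 and 4.76 FPKM in Yorkshire. Its Wannanhua values lay inside the Yorkshire range. The log2 difference was 0.40 ± 0.50 SE (adjusted p = 0.679 in limma), and -0.21 without Yorkshire 1 (adjusted p = 0.672).

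By the mean over all 6 libraries, the transcription factors were the lowest of the 9 in level. PPARG (ENSSSCG00000011579) stood at 1.47, 2.08 and 2.22 FPKM in Wannanhua, and at 0.750, 2.55 and 1.61 FPKM in Yorkshire. CEBPA (ENSSSCG00000002866) stood at 1.33, 1.62 and 2.95 FPKM in Wannanhua, and at 0.947, 1.72 and 1.38 FPKM in Yorkshire. The breeds overlapped for both, and the scaled counts behind CEBPA were 10.9 to 35.4. Log2 fold changes were 0.20 for PPARG (95% interval -0.45 to 0.85; limma adjusted p = 0.714) and 0.31 for CEBPA (-0.27 to 0.89; adjusted p = 0.493).

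**Figure D2:**
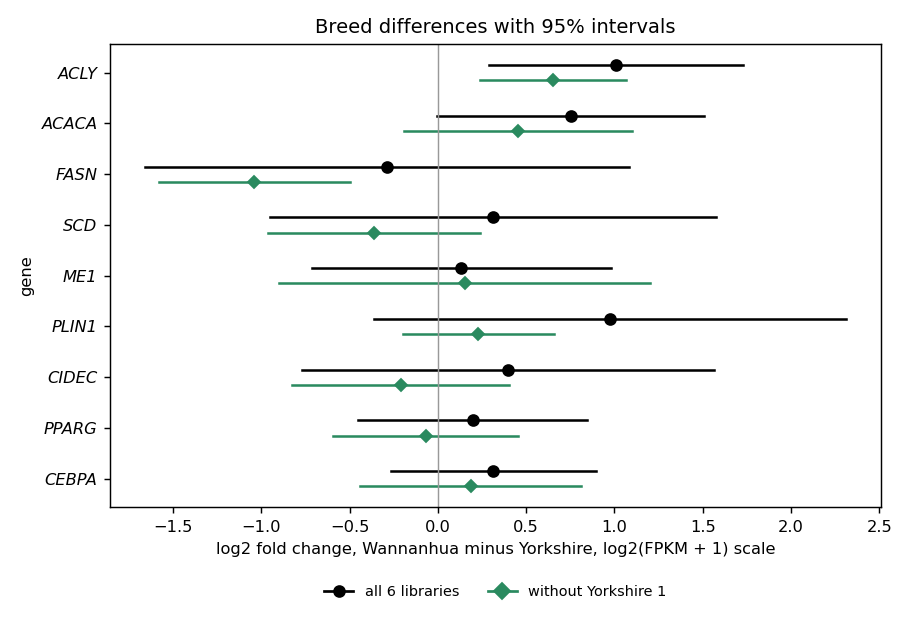
Log2 fold change of each gene, Wannanhua minus Yorkshire in log2(FPKM + 1), with its 95% interval from limma, over all 6 libraries (black circles) and without Yorkshire 1 (green diamonds). The interval of ACLY lay above 0 in both, that of FASN lay below 0 without Yorkshire 1, and no gene passed after adjustment in either.

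By breed means, the order in Wannanhua was ME1, PLIN1, SCD, ACLY, CIDEC, FASN, ACACA, CEBPA and PPARG. In Yorkshire it was ME1, FASN, SCD, CIDEC, PLIN1, ACLY, PPARG, CEBPA and ACACA. FASN thus averaged 3.41 ± 0.525 FPKM in Wannanhua, below ACLY, and 5.76 ± 4.57 FPKM in Yorkshire, above ACLY (SD, n = 3). Within Yorkshire the SD of FASN was larger than its distance to SCD, the next gene in that order, and smaller than its distance to ME1. The mean levels over all 6 libraries ran from 1.66 to 16.4 FPKM, around a median of 6.68 over tested genes.

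The spread within breeds was wide. The SD of log2(FPKM + 1), pooled over both breeds, had a median of 0.55 over the 9 genes and 0.27 over all tested genes, and each of the 9 was above 0.27. FASN, PLIN1, SCD and CIDEC had SDs of 0.95, 0.92, 0.87 and 0.80, larger than 97.9%, 97.6%, 97.1% and 96.2% of tested genes. The spread was smaller in Wannanhua than in Yorkshire for 7 of the 9, all but ME1 and CEBPA; SDs were larger in Yorkshire for 54.5% of tested genes. FASN varied 1.34-fold among the Wannanhua libraries and 11.1-fold among the Yorkshire libraries. PLIN1 varied 1.30-fold in Wannanhua and 14.2-fold in Yorkshire. Without Yorkshire 1 the median pooled SD of the 9 was 0.31, beside 0.21 over all tested genes.

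**Figure D3:**
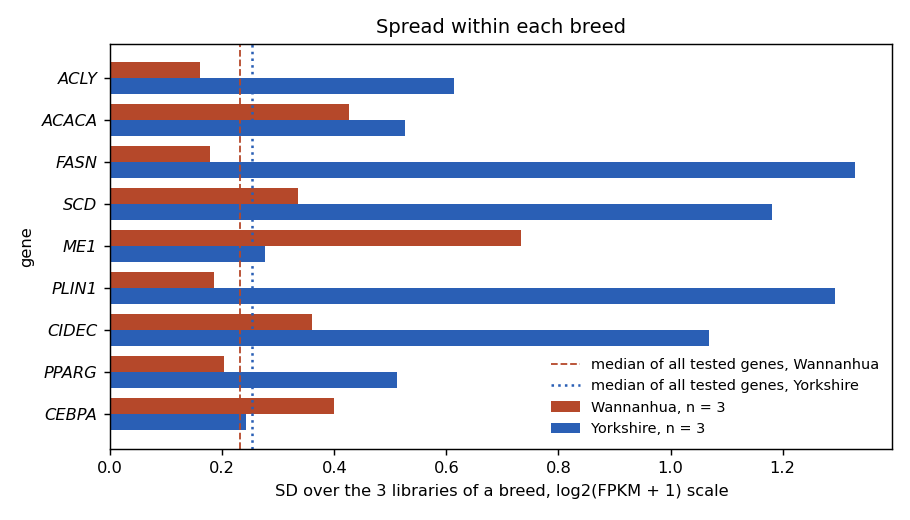
SD of log2(FPKM + 1) over the 3 libraries of each breed; bars are Wannanhua (above, red) and Yorkshire (below, blue), and the lines mark the medians of all tested genes. FASN, PLIN1, SCD and CIDEC had Yorkshire SDs of 1.33, 1.29, 1.18 and 1.07, against 0.18, 0.19, 0.33 and 0.36 in Wannanhua.

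Most of that spread came with a single library. Yorkshire 1 was the lowest of the 6 libraries for 8 of the 9 genes, against 36.3% of tested genes, and all 8 were under 1 FPKM in it. Relative to the mean of Yorkshire 2 and 3, Yorkshire 1 lay lower by a median of 1.06 on the log2 scale over the 9 genes (log2 difference -1.06), and the median of all tested genes was -0.13. FASN lay at -2.25, PLIN1 at -2.24, SCD at -2.01 and CIDEC at -1.82, and only 0.534%, 0.568%, 0.865% and 1.26% of tested genes lay further down. ACLY, ACACA and PPARG lay at -1.06, -0.91 and -0.80. CEBPA at -0.38 and ME1 at 0.05 lay well inside the bulk of genes.

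**Figure D4:**
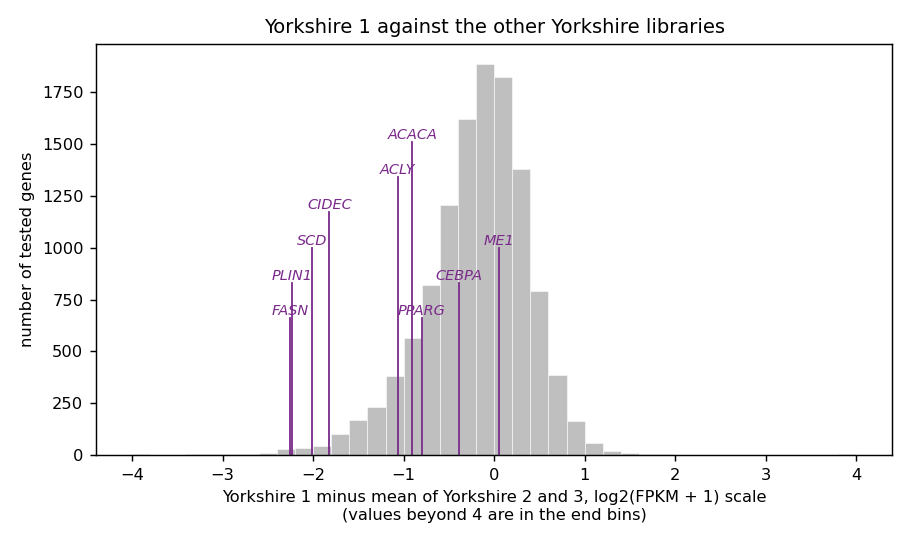
Distribution over the 11791 tested genes of the log2(FPKM + 1) difference of Yorkshire 1 from the mean of Yorkshire 2 and 3 (grey bars, number of genes), with the 9 genes marked by lines. FASN, PLIN1, SCD and CIDEC lay between -2.25 and -1.82, in the low tail, and ME1 at 0.05.

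Long transcripts were low in Yorkshire 1 more often than short ones. By a relative length read from the ratio of scaled count to FPKM, the 2358 longest of the tested genes had a median of -0.28 in Yorkshire 1 relative to Yorkshire 2 and 3, and Yorkshire 1 was their lowest library in 55.8%. In the other 4 length classes of like size the medians were between -0.12 and 0.01, and Yorkshire 1 was the lowest in 28.2% to 36.9%. FASN, SCD, ACACA and ME1 belong to the longest class, at 2.18 to 4.33 times the median length. PLIN1 and CIDEC, which were also low in Yorkshire 1, were shorter than the median gene, at 0.787 and 0.670 of its length.

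Markers of other cells in Yorkshire 1 differed in direction. Of 10 adipocyte markers 4 had a row, all of them lowest in Yorkshire 1 (36.3% of tested genes were) and none listed at 0. Their summed level was 47.4 to 66.2 FPKM in Wannanhua, and 20.6 FPKM in Yorkshire 1 against 57.6 and 49.5 FPKM in Yorkshire 2 and 3. PLIN1 and CIDEC are among the 9 genes described above, so they add nothing separate here. The others were PLIN4, another droplet coat protein, and LIPE, the hormone-sensitive lipase. PLIN4 stood at 16.4 FPKM in Yorkshire 1, and at 39.7 and 33.6 FPKM in Yorkshire 2 and 3. It made up most of the sum in each library. LIPE stood at 2.92 FPKM in Yorkshire 1, and at 5.90 and 5.13 FPKM in the others. ADIPOQ, LEP, FABP4, CIDEA, AQP7 and LPL had no row under those symbols and were not analysed here.

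Fibroblast and fibro-adipogenic markers (6 of 8 with a row) summed to 293 to 373 FPKM in Wannanhua, and to 318 FPKM in Yorkshire 1 against 780 and 531 FPKM in Yorkshire 2 and 3. COL1A2, a chain of type I collagen, stood at 29.5, 20.3 and 20.3 FPKM in Wannanhua, and at 32.3 FPKM in Yorkshire 1 against 119 and 67.4 FPKM in Yorkshire 2 and 3. Nerve sheath markers (2 of 4) summed to 7.73 to 11.6 FPKM in Wannanhua, and to 0.853 FPKM in Yorkshire 1 against 5.53 and 3.70 FPKM in Yorkshire 2 and 3. These markers, like the 4 fat-cell markers with a row, were thus low in Yorkshire 1 relative to the other Yorkshire libraries. The list of adipocyte products and droplet proteins described below, which also holds LIPE and PLIN4, was not low there as a set. Its median log2 difference of Yorkshire 1 from Yorkshire 2 and 3 was 0.10, and 4 of its 16 tested genes were lowest in Yorkshire 1. CFD, one of that list, stood at 83.9 FPKM in Yorkshire 1, and at 74.9 and 84.6 FPKM in Yorkshire 2 and 3.

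The summed levels of other cell types were not low in Yorkshire 1. Endothelial markers (4 of 7) summed to 38.7 to 57.3 FPKM in Wannanhua, and to 47.0 FPKM in Yorkshire 1, between the 43.3 and 53.6 FPKM of Yorkshire 2 and 3. Macrophage markers (5 of 8) summed to 14.4 to 17.7 FPKM in Wannanhua and 11.8 to 24.0 FPKM in Yorkshire, and smooth muscle markers (4 of 4) to 76.9 to 229 FPKM in Wannanhua and 91.8 to 133 FPKM in Yorkshire, with Yorkshire 1 inside its breed's range in both. C1QA, a complement subunit, made up most of the macrophage sum in Yorkshire 1, at 11.6 of 16.7 FPKM. Of the other macrophage markers MRC1, CD14 and CSF1R were lowest in Yorkshire 1, so that 3 of the 5 were lowest there, as were 3 of the 6 fibroblast markers. Relative to Yorkshire 2 and 3 the median log2 difference was -0.36 over the macrophage markers and -1.22 over the fibroblast markers. Blood markers (2 of 3), led by HBB of haemoglobin, ran the other way. They summed to 43.4 to 142 FPKM in Wannanhua, and to 93.6 FPKM in Yorkshire 1 against 15.8 and 18.4 FPKM in Yorkshire 2 and 3.

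Muscle fibre markers (4 of 8) of the labelled tissue summed to 10396 to 20068 FPKM in Wannanhua, and to 10725 FPKM in Yorkshire 1 against 7983 and 8832 FPKM in Yorkshire 2 and 3. Among the 4, TNNT1 differed most within Yorkshire, at 3950 FPKM in Yorkshire 1 against 1240 and 2134 FPKM in Yorkshire 2 and 3. MYBPC1 and DES were also highest of the Yorkshire libraries in Yorkshire 1, whereas CASQ1 was lowest of them there. The higher sum thus does not hold for each fibre marker. No marker with a row was listed at 0 in any library. Between the breeds, 0 genes of the other marker lists were called over all 6 libraries, and 2 of the 4 tested in this one, where 3.05% of all tested genes were. Without Yorkshire 1, 190 of 11791 tested genes were called in either direction. Among the 6 fibroblast markers 2 were then called, both lower in Wannanhua. These were COL1A2 (log2 fold change -1.91, limma adjusted p = 0.0404) and COL3A1, the chain of type III collagen (-1.58, limma adjusted p = 0.0345). MYBPC1 of the sarcomere was higher, at 4097, 3001 and 1730 FPKM in Wannanhua and 693, 574 and 506 FPKM in Yorkshire (log2 difference 2.24 ± 0.34 SE, limma adjusted p = 0.0295). CASQ1, which binds calcium inside the sarcoplasmic reticulum, was lower, at 1525, 1257 and 1876 FPKM in Wannanhua and 3147, 3780 and 4011 FPKM in Yorkshire (log2 difference -1.24 ± 0.24 SE, limma adjusted p = 0.0435). Both calls were lost without any of Wannanhua 1, Wannanhua 2, Yorkshire 2 and Yorkshire 3 (limma adjusted p from 0.0777 to 0.174), and CASQ1 also without Yorkshire 1 (0.0567). Without a filter on low values neither passed (0.0544 for MYBPC1 and 0.0702 for CASQ1), and after quantile normalization CASQ1 did not (0.115). The part of cell makeup, transcript length or tissue sampling in the low values of Yorkshire 1 was not tested.

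Across the 6 libraries the genes other than ME1 varied together, with a median Pearson r of 0.77 over their 28 pairs (from 0.24 to 0.94). Without Yorkshire 1 the median was 0.01 (from -0.81 to 0.83), so the joint variation rested on that library. ACLY and ACACA kept r = 0.83 over the remaining 5 libraries, and FASN and ACLY had r = -0.81. These are descriptions over few libraries that share depth and breed. ME1 had r between -0.31 and 0.79 with the 8 others, the highest with CEBPA.

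Among the genes most like FASN over the 6 libraries, by Pearson r of log2(FPKM + 1), were POGLUT3, MPHOSPH9, LUM and COL14A1 (r from 0.97 to 0.99). LUM, lumican, and COL14A1, type XIV collagen, are matrix proteins. Those most like PLIN1 were ATRX, AKAP9, AFF4, OTUD4 and RBM26, with r from 0.996 to 0.997. PLIN1 stood at 0.423 FPKM in Yorkshire 1 and at 5.44 to 7.52 FPKM in the other libraries, so such an r rests mainly on Yorkshire 1. The r of these genes without that library was not computed. Of 7150 named genes compared, 80 (1.12%) had r above 0.9 with FASN and 490 (6.85%) with PLIN1.

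Around these genes, 4 lists of the same pathway, without the 9, held 64 tested genes, of which 5 (7.81%) were called, where 3.05% of all tested genes were. Of 26 lipogenic enzymes and suppliers of their substrates 16 were tested, and 2 were higher in Wannanhua (1.76% of tested genes were called higher), ME2 and ME3, while 0 were lower. ME2 and ME3 are the mitochondrial malic enzymes, relatives of ME1 in another compartment. ME3 stood at 29.8, 38.6 and 16.7 FPKM in Wannanhua, and at 7.38, 4.70 and 7.96 FPKM in Yorkshire (log2 difference 1.89 ± 0.33 SE, adjusted p = 0.0389 in limma). ME2 stood at 26.5, 22.5 and 10.4 FPKM in Wannanhua, and at 5.05, 5.72 and 4.66 FPKM in Yorkshire (log2 difference 1.67 ± 0.33 SE, adjusted p = 0.0465 in limma). The most abundant other members were TALDO1 of the pentose phosphate pathway (31.7 ± 6.46 FPKM in Wannanhua and 41.1 ± 6.40 FPKM in Yorkshire, SD, n = 3; limma adjusted p = 0.344) and HSD17B12, a reductase of fatty acid elongation (20.1 ± 1.29 FPKM in Wannanhua and 36.2 ± 5.78 FPKM in Yorkshire; limma adjusted p = 0.0573). The list's median log2 fold change was 0.07, beside 0.12 over all tested genes.

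Of 22 regulators of lipogenesis 17 were tested, with 1 higher, PRKAG1, and 0 lower (median log2 fold change -0.20). PRKAG1, a gamma subunit of the AMP-activated kinase that inhibits ACACA, stood at 62.4, 58.3 and 38.9 FPKM in Wannanhua, and at 26.2, 21.0 and 22.9 FPKM in Yorkshire (log2 difference 1.13 ± 0.22 SE, adjusted p = 0.0458 in limma). PRKAG3, another gamma subunit, lay the other way and did not pass. It stood at 7.38, 11.7 and 21.5 FPKM in Wannanhua, and at 29.9, 20.3 and 53.7 FPKM in Yorkshire (log2 difference -1.30 ± 0.44 SE, adjusted p = 0.149 in limma). SREBF1 and THRSP, which promote lipogenesis, had no row under those symbols. USF2, a factor that binds promoters of lipogenic genes, stood at 146 ± 8.77 FPKM in Wannanhua and 132 ± 18.0 FPKM in Yorkshire (SD, n = 3; limma adjusted p = 0.646). PRKAB2, a beta subunit of the AMP-activated kinase, and MLXIP, a glucose-responsive factor, were each lowest in Yorkshire 1, at 55.9 and 21.4 FPKM. They were among 5 of the 17 tested genes lowest there, against 36.3% of all tested genes.

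Of 28 regulators of adipocyte formation 15 were tested, with 0 higher and 1 lower (1.29% of tested genes were called lower), RXRG, a retinoid X receptor that pairs with PPAR proteins (median of the list 0.24). RXRG stood at 15.1, 34.6 and 19.0 FPKM in Wannanhua, and at 72.7, 60.0 and 77.6 FPKM in Yorkshire (log2 difference -1.65 ± 0.30 SE, adjusted p = 0.0412 in limma). RXRB, another retinoid X receptor, and CEBPG, a relative of CEBPA, were among the next most abundant and did not pass (limma adjusted p = 0.826 and 0.631). In this list 9 of 15 genes were lowest in Yorkshire 1, against 36.3% of tested genes. The other 3 lists were not above that share. Yorkshire 1 was lowest for 3 of 16 lipogenic enzymes and suppliers, 5 of 17 regulators of lipogenesis and 4 of 16 adipocyte products and droplet proteins.

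Of 35 adipocyte products and droplet proteins 16 were tested, with 0 higher and 1 lower, GPD1 (median of the list 0.36). GPD1, which makes glycerol 3-phosphate in the cytosol of fat and muscle cells, stood at 278, 388 and 461 FPKM in Wannanhua, and at 1668, 1183 and 1315 FPKM in Yorkshire (log2 difference -1.90 ± 0.26 SE, adjusted p = 0.0223 in limma). PNPLA2, the first lipase of droplet triglyceride, had no overlap, at 144 ± 31.4 FPKM in Wannanhua and 65.7 ± 17.4 FPKM in Yorkshire (SD, n = 3; limma adjusted p = 0.0601). FITM1, an endoplasmic reticulum protein of droplet formation, and CAV1, the caveolar coat protein, did not pass (limma adjusted p = 0.690 and 0.454). Without Yorkshire 1, GPD1 still passed (limma adjusted p = 0.0350), whereas ME3, ME2, PRKAG1 and RXRG did not (adjusted p = 0.0645, 0.0840, 0.0646 and 0.0745). Without a filter on low values these 4 did not pass either (limma adjusted p from 0.0671 to 0.0777), and after quantile normalization ME2 and PRKAG1 did not (0.0636 and 0.0614). Without Yorkshire 1 the log2 fold changes of ME3, ME2, PRKAG1 and RXRG were 1.96, 1.66, 1.21 and -1.62. GPD1 did not pass without Wannanhua 1, Wannanhua 2, Yorkshire 2 or Yorkshire 3 (limma adjusted p = 0.0753, 0.0988, 0.0504 and 0.0999). ME2, ME3 and PRKAG1 did not pass without any of these 4 libraries either (limma adjusted p from 0.101 to 0.161). RXRG did not pass without Wannanhua 1, Wannanhua 3, Yorkshire 2 or Yorkshire 3 (limma adjusted p from 0.0615 to 0.146).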

How the data were processed

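Poly-A RNA of 6 muscle libraries was sequenced as paired-end reads from a kit that does not mark strand, per the labels' protocols. CASAVA 1.7, TopHat2 2.0.6 and build Sscrofa10.2 are listed without roles in the submitters' processing notes, and for the read counter and annotation nothing is given in the sources used here. Per the file headers, the authors deposited FPKM values and values headed as counts. The values headed as counts were not whole numbers and are treated as a signal, scaled counts by the authors. Symbols matched 10384 of 17627 identifiers (58.9%).

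Breeds were compared with limma 3.58.1 in R 4.3.3 on log2(FPKM + 1), with breed as the only term, trend and robust settings, and Benjamini-Hochberg adjustment over 11791 genes at a threshold of 0.05. The fit was run on simulated data in which the changed genes were drawn from those with a within-breed SD below the median. All 9 members lie above that median, so the simulation cannot show whether changes in these genes would be called. The fit omitted 7 genes listed at 0 in a library despite a scaled count of at least 10000 elsewhere. The 95% intervals use limma's moderated SE; depth in whole reads is unknown, so no counting interval is given. Members, lists and tests were chosen with earlier results of these data known. Named genes were the members, the called genes of each list or its most abundant, up to 4, and the 5 genes most like FASN and PLIN1; others were named after their values were seen, and some genes that the rule names are not reported here. Alternatives covered the filter, pseudocount, scaling, limma settings, a replicate block, the failed zeros, the scaled counts (added after seeing the data) and each library left out.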

Additional observations from a re-analysis of the deposited data

How the results depend on the processing

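Across 14 alternatives 0 of the 9 genes passed the threshold, and the lowest adjusted p of any of them was 0.0734. Of 120 values of single genes, 114 kept their direction. The 6 that turned were SCD, PPARG and CIDEC without Yorkshire 1 (-0.36, -0.069 and -0.21), FASN without Yorkshire 2 (0.23), and ME1 without Wannanhua 3 (-0.29) and without Yorkshire 3 (-0.012). With a library left out, FASN ran from -1.04 to 0.23, SCD from -0.36 to 0.75, ME1 from -0.29 to 0.35, PPARG from -0.069 to 0.44 and CIDEC from -0.21 to 0.80. ACLY, ACACA, PLIN1 and CEBPA stayed positive under all that were run for them. With a library left out they ran from 0.65 to 1.19, 0.45 to 0.97, 0.23 to 1.38 and 0.088 to 0.47; the first 3 were lowest without Yorkshire 1, and CEBPA was lowest without Wannanhua 3 (0.19 without Yorkshire 1, 0.17 after quantile normalization). The filter at 5 FPKM kept 3 of the 9.

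Over all genes, 360 passed as reported, 69 without a filter, 205 with the replicate number as a block and 27 to 524 with a library left out. The count was 41 and 30 without Wannanhua 1 and 2, and 190, 58 and 27 without Yorkshire 1, 2 and 3. The median SD of the 9 genes within breeds, 0.55 as reported, was 0.86 with a pseudocount of 0.1 and 0.95 on scaled counts, where all tested genes had 0.33 and 0.33. The median of the 9 ran from 0.31 to 0.66 with a library left out, lowest without Yorkshire 1. With the filter at 5 FPKM only 3 members remained, SCD, PLIN1 and ME1. Their median was 0.87, beside 0.27 over all tested genes. It is the SD of SCD, unchanged from the reported fit, so the median moved because members dropped out. The cause of the other changes was not tested.

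Libraries of the breeds are linked only by replicate number. Deviations of same-numbered libraries correlated at 0.10, -0.01 and 0.11. Wannanhua 1 and Wannanhua 3 each correlated best with their own number. Wannanhua 2 was near 0 with Yorkshire 1, 2 and 3 (0.004, -0.012 and 0.009). Such correlations over few libraries cannot decide whether the libraries were paired, and the block was not used as the reported fit. With it, limma's adjusted p was 0.0615 for ME3, 0.0625 for PRKAG1, 0.0619 for RXRG and 0.0743 for CASQ1, which then did not pass. The edgeR test on whole reads was not run, since the deposited values were not whole. Low scaled counts in Yorkshire 1 limit PLIN1 (9.83), CEBPA (10.9), CIDEC (17.5), ACLY (24.0) and PPARG (25.1). For CEBPA they were no higher than 35.4 in any library.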

Other observations

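Ratios of FPKM within a library do not depend on that library's scaling, and 12 were computed among the 9 genes after their values had been seen. FASN over ACLY stood at 0.737, 0.695 and 0.676 in Wannanhua 1, 2 and 3, and at 1.16, 3.63 and 2.42 in Yorkshire 1, 2 and 3. FASN over ACACA stood at 1.46, 1.04 and 1.79 in Wannanhua, and at 2.52, 6.93 and 3.92 in Yorkshire. FASN was thus higher relative to the earlier enzymes of the same route in every Yorkshire library, Yorkshire 1 included, than in any Wannanhua library. FASN over PLIN1 was 0.374 to 0.635 in Wannanhua and 1.07 to 2.12 in Yorkshire, and SCD over PLIN1 was 0.560 to 0.921 in Wannanhua and 1.03 to 2.13 in Yorkshire. The values of 2.12 and 2.13 were those of Yorkshire 1, where the scaled count of PLIN1 was 9.83. These 4 of the 12 ratios did not overlap between the breeds, and by their own levels 29.9% of tested genes did not. The share among ratios of other genes was not computed. FASN or PLIN1 enters each of the 4, so they are not separate observations. Each of the 4 had an exact two-sided permutation p of 0.1, the smallest that 3 libraries against 3 allow. After Benjamini-Hochberg adjustment over the 12 it was 0.3, so none passed. ACLY over ACACA overlapped, at 1.49 to 2.65 in Wannanhua and 1.62 to 2.18 in Yorkshire.

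CIDEC and PLIN1, both droplet proteins of fat cells, differed in which libraries were high: CIDEC over PLIN1 was 0.760, 0.876 and 0.477 in Wannanhua, and 2.05, 1.20 and 0.795 in Yorkshire. The breeds overlapped, and the value of 2.05 in Yorkshire 1 rests on low scaled counts, 17.5 for CIDEC and 9.83 for PLIN1. PLIN5, the droplet coat protein of oxidative muscle, is no member. It stood at 24.8, 39.3 and 4.40 FPKM in Wannanhua, and at 8.97, 1.28 and 2.94 FPKM in Yorkshire, so that Yorkshire 1 was the highest Yorkshire library for it while it was the lowest for PLIN1 (limma adjusted p = 0.204). MLXIPL, the carbohydrate-responsive factor of lipogenic genes, was high in 1 library, at 3.81, 19.9 and 2.18 FPKM in Wannanhua, and at 2.09, 0.840 and 1.74 FPKM in Yorkshire (limma adjusted p = 0.238).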
